A study of Mus musculus with 12 samples.

Results

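The diet effect shared by both sampling times was estimated from all 12 liver small RNA libraries of the series, 6 from mice on the HFCF diet and 6 from mice on chow. All 12 libraries entered 1 fit in which time was an additive term, so that levels could differ between the times while the diet was given a single effect. That effect was taken for 227 miRNA loci and, apart from them, for short fragments of 1553 protein-coding genes. The mice were wild-type C57BL/6 males from a study of the liver in experimental steatohepatitis. HFCF, which the labels do not spell out, or normal chow was fed for 1 month, with mice at 3 months of age, or for 3 months, with mice at 6 months of age, so time on the diet and age moved together. Each of the 4 groups held 3 libraries from separate livers, described as biological replicates. The labels name a small RNA library kit and the design text a stranded total RNA kit; which of these was used is not settled, and miRNA loci held most of the counts.

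A miRNA is cut from a hairpin precursor and guides a silencing complex to messenger RNAs that pair with its seed, the bases near its 5′ end. Neighbouring miRNA genes are often made from 1 shared transcript, and a miRNA in an intron can be made along with its host gene. In fat-loaded liver, the nuclear receptor PPARα is known to switch on genes of fatty acid uptake and oxidation, while hepatocytes also carry the urea cycle, amino acid breakdown and methionine metabolism.

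The sequences of the miRNAs that carry the results are given first, as RefSeq lists them for GRCm38.p6, 5′ to 3′, with the seed (bases 2 to 8) in capitals. Of the 37 miRNA loci called changed, 35 matched a RefSeq mature sequence. The counts are per hairpin locus, so the values below belong to the locus and not to the arm printed. The miR-183 cluster is shown because its 3 members were all lower on HFCF.
miR-183-5p: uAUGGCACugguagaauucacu
miR-96-5p: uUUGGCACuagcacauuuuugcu
miR-182-5p: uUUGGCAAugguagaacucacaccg
The miR-96-5p seed agrees in 6 of 7 letters with that of miR-182-5p and in 6 of 7 with that of miR-183-5p. Among the miRNAs of the Dlk1-Dio3 region, miR-379-3p and miR-411-3p have 1 seed in common, miR-300-3p and miR-381-3p agree in 6 of 7 seed letters, while Mir136 separated the diets fully and Mir127 had the highest level.
miR-379-3p: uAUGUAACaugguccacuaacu
miR-411-3p: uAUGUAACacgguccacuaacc
miR-300-3p: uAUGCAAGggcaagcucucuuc
miR-381-3p: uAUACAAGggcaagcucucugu
miR-136-5p: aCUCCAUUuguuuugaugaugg
miR-127-3p: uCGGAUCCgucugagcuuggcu
Single loci that were lower are represented by miR-137 and miR-33.
miR-137-3p: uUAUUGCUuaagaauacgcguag
miR-33-5p: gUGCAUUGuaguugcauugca
Loci that were higher are represented by the seed-sharing pair miR-221 and miR-222 and by 3 miRNAs of introns.
miR-221-3p: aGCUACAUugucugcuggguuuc
miR-222-3p: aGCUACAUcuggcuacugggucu
miR-676-3p: cCGUCCUGagguuguugagcu
miR-149-5p: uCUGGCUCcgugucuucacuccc
miR-582-5p: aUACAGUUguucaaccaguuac

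Counts per library summed to 2539388 to 5255906 in the whole table, to 1434214 to 3122907 over miRNA loci and to 31205 to 101283 over the protein-coding fragments used here. Levels are CPM, counts after TMM scaling to a common library size, relative to the summed counts of the class (miRNA loci or protein-coding fragments). A locus was called changed at a Benjamini-Hochberg adjusted p under 0.05 in edgeR's quasi-likelihood test. Chow replicate 2 at 1 month stood apart from the other libraries, with 44.7 CPM of the endocrine miRNA Mir375 against 2.21 to 5.37 CPM elsewhere, and with the highest summed mesenchymal miRNAs (38433 CPM, others 13194 to 21896 CPM). The tissue label was met by the markers, since 15 hepatocyte transcripts together made up 106923 to 127651 CPM of the fragments in HFCF livers and 121139 to 174315 CPM in chow livers. In bulk liver, fewer cells of a type and less RNA per cell cannot be told apart.

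Over both times the most extensive change was a fall of miRNAs from the Dlk1-Dio3 region and of the miR-183 cluster, while a smaller set of miRNAs rose. Of 227 miRNA loci tested, 37 were called (16.3%). Of these 12 were higher on HFCF (5.29% of loci tested) and 25 lower (11%), and 24 had more than a 2-fold change. Without chow replicate 2 at 1 month 39 loci were called, 14 higher and 25 lower, and 32 of them were among the 37. The split depended on the scaling. When all genes of the table were scaled together in 1 fit, the median log2 fold change of all miRNA loci was 0.28, against 0.01 here, and 71 loci were called, 51 higher and 20 lower. A named change is thus relative to the other miRNAs of the liver.

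All 6 HFCF libraries lay on 1 side of all 6 chow libraries for 6 of 227 loci (2.64%), 1 higher (Mir676, 0.441%) and 5 lower (Mir136, Mir137, Mir33, Mir96 and Mir182, 2.20%). All 6 were among the 37 called. Within each time, the HFCF livers lay on the same side of the chow livers at both times for 14 of 227 loci (6.17%). Of the 37 called, 11 did so, a property that a call from the same libraries favours. A further 75 of the 227 loci lay apart at 3 months without lying apart the same way at 1 month, 24 of them called.

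**Figure D1:**
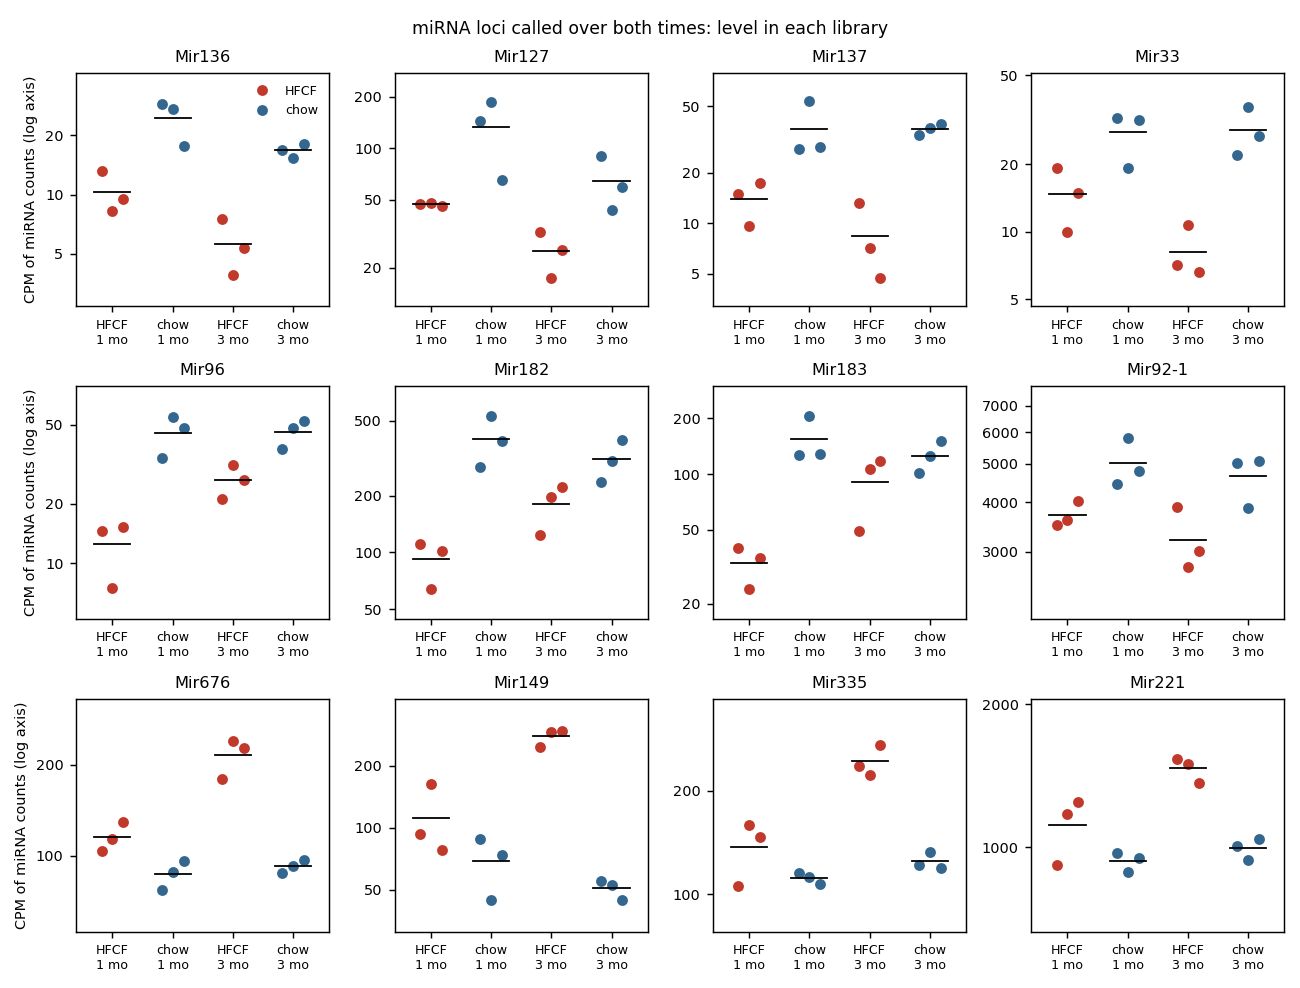
Level of 12 called miRNA loci in each library, as CPM of miRNA counts on a log axis, with 1 point per library, a line at the mean of 3 libraries, HFCF in red and chow in blue at 1 month and at 3 months. For Mir136, Mir137, Mir33, Mir96 and Mir182 all 6 HFCF points lie below all 6 chow points, and for Mir676 they lie above.

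The Dlk1-Dio3 region of chromosome 12 is an imprinted region whose miRNAs are made from the maternal chromosome. Of 16 listed miRNAs of this region that were tested, 13 were lower on HFCF, 0 were higher and 3 did not pass. Over all loci tested 16.3% were called. This list, like the others used below, was chosen with earlier results of these data known, which can favour a high count. Neighbouring miRNA loci can share a transcript, so members of the list are not independent. The median log2 fold change was -1.20 on the list and 0.01 over all loci tested. A further 7 listed loci had too few counts to be tested. AC121784.1, which lies opposite miR-409 and was not on the list, was lower as well. By position, 17 loci were tested between 109585790 and 109743795 of chromosome 12 (mm10), and all 17 had a negative value. Counts of lower members on the list stayed between 12 and 15 when any 1 library was left out, and fell to 7 when the time term was dropped. The summed level of the 16 miRNAs was 226 to 371 CPM in HFCF livers and 329 to 743 CPM in chow livers at 1 month. At 3 months it was 112 to 124 CPM in HFCF livers and 281 to 411 CPM in chow livers, with no overlap between the diets.

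Mir136, which lies opposite an exon of the imprinted gene Rtl1 (109595317 to 109595398, plus strand), shared the smallest adjusted p of the region with Mir341. Its HFCF levels were 13.2, 8.23 and 9.45 CPM at 1 month and 7.48, 3.90 and 5.34 CPM at 3 months. Its chow levels were 28.8, 27.1 and 17.6 CPM at 1 month and 16.8, 15.4 and 18.1 CPM at 3 months. Every HFCF library was therefore below every chow library (log2 fold change -1.41 ± 0.21 SE, n = 6 per diet, edgeR adjusted p = 0.00141), and the call held in all 24 alternatives. Mir127, also opposite Rtl1 and the most abundant called locus of the region, ran from 17.5 to 48.0 CPM with a median of 39.1 CPM on HFCF, against 43.6 to 188 CPM with a median of 78.1 CPM on chow. The diets overlapped over both times but not within either of them (-1.43 ± 0.25, adjusted p = 0.00324). Mir381, in the distal part of the region, was 6.49 to 22.2 CPM on HFCF and 18.9 to 45.5 CPM on chow (-1.33 ± 0.22, edgeR adjusted p = 0.00201). Mir341, intronic to the long non-coding RNA Rian, had the largest value of the region, -2.46 ± 0.35, but rested on 12 counts in HFCF and 58 counts in chow libraries. The locus AC121784.4, where miR-299a and miR-299b lie on opposite strands, had a value of -1.42 ± 0.35; which strand its counts came from is not known, since the use of strand in counting is not given in the sources used here.

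**Figure D2:**
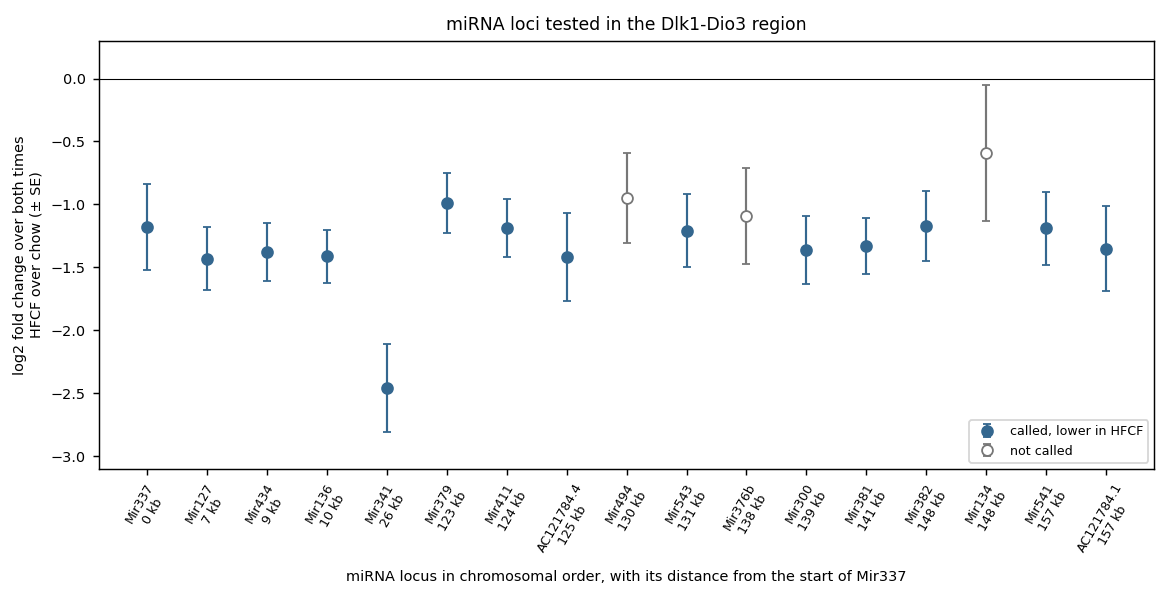
Log2 fold change over both times with its SE for the 17 miRNA loci tested in the Dlk1-Dio3 region, in chromosomal order with the distance of each from the start of Mir337 in kilobases. All 17 values lie below 0, and the 14 filled points were called lower in HFCF.

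The miR-183 cluster, best known from sensory cells, is made from a stretch of chromosome 6 that holds Mir96, Mir182 and Mir183, and 3 of its 3 members were lower. Their summed level separated the diets, at 95.6 to 365 CPM in HFCF livers and 375 to 788 CPM in chow livers. Mir96 (30169446 to 30169551, minus strand) was 7.52 to 31.2 CPM with a median of 18.2 CPM on HFCF, against 34.1 to 54.7 CPM with a median of 48.2 CPM on chow (-1.32 ± 0.25, edgeR adjusted p = 0.00379). Mir182 was 64.1 to 222 CPM on HFCF and 236 to 527 CPM on chow, again with no overlap (-1.44 ± 0.29, adjusted p = 0.00482). Mir183 was 24 to 117 CPM on HFCF and 101 to 206 CPM on chow, and its diets overlapped (-1.32 ± 0.35, adjusted p = 0.0192); its call was lost with library totals in place of TMM and without the time term, with adjusted p up to 0.0558. The median of the cluster was -2.11 at 1 month and -0.79 at 3 months. The difference of the diet effect between the times had an unadjusted p of 0.00187 for Mir183, 0.00714 for Mir182 and 0.0188 for Mir96, and none passed adjustment (0.0820, 0.105 and 0.152).

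Among single loci, Mir33, the intronic miRNA of Srebf2, a regulator of sterol genes (chromosome 15, 82198122 to 82198190), which is known to repress cholesterol export, was lower. Its level was 6.59 to 19.2 CPM with a median of 10.4 CPM on HFCF, against 19.3 to 36.1 CPM with a median of 29.3 CPM on chow. The highest HFCF library thus lay just under the lowest chow library (-1.35 ± 0.25, edgeR adjusted p = 0.00379), and the call held in all 24 alternatives. Transcripts of sterol synthesis, the pathway its host gene controls, gave 0 calls among 6 tested, with a median of -0.31 against -0.00 over all fragments. Mir137, best known from neurons (chromosome 3, 118433843 to 118433944), was 4.71 to 17.5 CPM on HFCF and 27.7 to 53.6 CPM on chow, with no overlap (-1.74 ± 0.28, adjusted p = 0.00201). Mir92-1, of the miR-17/92 cluster, was 2744 to 4019 CPM on HFCF and 3869 to 5805 CPM on chow (-0.48 ± 0.11, adjusted p = 0.00768); its mature sequence has a second copy in the genome, so the copy is uncertain. Of 11 tested members of that cluster and its paralogues it was the 1 called. Mir10b, in an intron of Hoxd3 and Hoxd4 and nearly identical to miR-10a, had a value of -2.07 ± 0.62 (edgeR adjusted p = 0.0370). The size of this value leaned on chow replicate 2 at 1 month. That library had 1389 CPM, whereas the HFCF libraries ran from 33.1 to 118 CPM and the other chow libraries from 86.7 to 169 CPM. Without that library the value was -1.06 and the locus was still called (edgeR adjusted p = 0.0249), but the call was lost in 13 of 24 alternatives.

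The X-linked cluster around Mir741 had 2 lower members of 5 tested and 0 higher, against 16.3% called over all loci. Its median was -0.65 over both times, 0.03 at 1 month and -1.51 at 3 months. In at least 1 alternative none of the 5 was called, and both, Mir880 and Mir743, were under 10 CPM in each diet, with 24 and 17 counts in all HFCF libraries and 47 and 49 counts in all chow libraries.

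Of the 12 loci that were higher, 6 lie in introns of protein-coding genes on the same strand, namely Mir582, Mir149, Mir676, Mir335, Mir185 and Mir107. The same held for 2 of the 25 lower loci and for 79 of all 227 tested (34.8%). Mir676, in an intron of the ectodysplasin gene Eda on chromosome X (100381097 to 100381185), was 104, 114 and 129 CPM at 1 month and 180, 240 and 228 CPM at 3 months on HFCF. On chow it was 77.1, 88.3 and 96.4 CPM at 1 month and 87.9, 92.4 and 97.1 CPM at 3 months. Every HFCF library was above every chow library (0.81 ± 0.16, edgeR adjusted p = 0.00432, n = 6 per diet). Mir149, in an intron of the glypican gene Gpc1 (chromosome 1, 92850378 to 92850443), was 77.5 to 296 CPM with a median of 206 CPM on HFCF, against 44.6 to 88.5 CPM with a median of 53.9 CPM on chow. The diets overlapped at 1 month and were apart at 3 months (1.57 ± 0.33, adjusted p = 0.00745). Mir335, whose host Mest is imprinted, was 106 to 272 CPM on HFCF and 107 to 133 CPM on chow (0.63 ± 0.14, adjusted p = 0.00950), and Mir185, in an intron of Tango2, was 1258 to 1618 CPM on HFCF and 1034 to 1263 CPM on chow (0.30 ± 0.07, adjusted p = 0.00745). The calls of these 4 loci held in all 24 alternatives. Mir582, hosted by Pde4d, which encodes a phosphodiesterase, had the largest value of all named loci, 3.24 ± 0.81, with 18.3, 101 and 105 CPM in the HFCF livers at 3 months and at most 5.97 CPM in every other library. Its call was lost without any 1 of the chow libraries at 3 months (adjusted p up to 0.0605).

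The pair miR-221 and miR-222, neighbours on chromosome X with 7 of 7 seed letters in common and known from proliferating and fibrotic tissue, gave 2 higher members of 2. Mir221 was 920 to 1537 CPM with a median of 1306 CPM on HFCF, against 888 to 1044 CPM with a median of 961 CPM on chow (0.40 ± 0.09, edgeR adjusted p = 0.00950). Mir222 was 200 to 422 CPM on HFCF and 184 to 232 CPM on chow (0.54 ± 0.14, edgeR adjusted p = 0.0136). The call of Mir222 was lost in 1 of 24 alternatives, with a replicate block of 6 pairs within time (adjusted p = 0.0516). Both pairs of diets overlapped at 1 month and were apart at 3 months, as were many of the 227 loci tested. Among 7 leukocyte miRNAs 1 was higher and 1 lower, against 16.3% called over all loci. The counts were 0 and 0 with library totals in place of TMM, and 4 higher and 0 lower with all genes in 1 fit. Mir223, a myeloid miRNA, was 57.8 to 128 CPM on HFCF and 42.4 to 58.3 CPM on chow (0.67 ± 0.19, adjusted p = 0.0309), whereas Mir146, known to dampen inflammatory signalling, had a value of -0.41 ± 0.10 (adjusted p = 0.0135). The call of Mir223 was lost in 8 of 24 alternatives and that of Mir146 in 4, with a value of Mir146 down to -0.11 and an adjusted p up to 0.604. Mir155, which is induced in activated immune cells, had a value of 0.95 (adjusted p = 0.0900) and was not called with all libraries; without chow replicate 2 at 1 month its adjusted p was 0.00798. The summed leukocyte miRNAs were 2263 to 3548 CPM in HFCF livers and 2648 to 3378 CPM in chow livers, and their part in these values was not tested.

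Abundant liver miRNAs gave few calls. Mir21, the most abundant named locus and known from injured liver, was 167442 to 378929 CPM with a median of 213857 CPM on HFCF, against 257631 to 329435 CPM with a median of 296687 CPM on chow (-0.29, edgeR adjusted p = 0.211; -0.41 to 0.01 over the alternatives, so its sign is not fixed). None of 7 hepatocyte miRNAs was called (median -0.03, and -0.13 to 0.24 over the alternatives), nor any of 10 let-7 loci (median 0.15). The same held for 5 of the miR-200 family, which marks bile duct epithelium (median -0.15, and -0.32 to 0.17 over the alternatives). In single alternatives up to 2 hepatocyte miRNAs and 6 let-7 loci were called higher, and up to 1 of the miR-200 family lower. The lipid and sterol list gave 2 higher (Mir223 and Mir107) and 1 lower (Mir33) of 14, against 16.3% called over all loci, and leaving out 1 library gave 0 to 3 higher. Mir107 was 662 to 1429 CPM on HFCF and 548 to 854 CPM on chow (0.41 ± 0.13, edgeR adjusted p = 0.0478), and it is nearly identical to miR-103. Its call was lost in 15 of 24 alternatives, among them the fit without chow replicate 2 at 1 month (adjusted p = 0.0840). Mir34a had a value of 0.86 (edgeR adjusted p = 0.0972) and Mir802 of 0.51 (adjusted p = 0.173), neither of them called. Without chow replicate 2 at 1 month Mir802 had 0.70 (adjusted p = 0.0249) and Mir34a had 0.93 (adjusted p = 0.0638). Mir203 had a value of 0.35 (edgeR adjusted p = 0.0455) and AC116595.1 of 0.27 (adjusted p = 0.0295). AC116595.1 is a locus of chromosome 18 opposite an intronic miRNA of Ppargc1b, and its counted strand is not known. The call of Mir203 was lost in 11 of 24 alternatives and that of AC116595.1 in 7. Among these was the fit without chow replicate 2 at 1 month, with adjusted p of 0.0658 and 0.0638.

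A single diet effect describes some loci better than others. All 37 called miRNA loci had the same sign at both times, against 147 of 227 tested (64.8%), a property that a call over both times favours. At single times, 7 loci were called at 1 month (3.08%) and 52 at 3 months (22.9%). Of the 37, 5 were called at both single times, 2 at 1 month only, 22 at 3 months only and 8 at neither. A further 25 loci were called at 3 months and not over both times. The change was larger at 3 months for 28 of the 37 and larger at 1 month for 9, the miR-183 cluster among the 9. Across the 227 loci, which are not independent, the log2 fold changes at the 2 times had a Pearson r of 0.465 and a Spearman rho of 0.386. The difference of the diet effect between the times was called for 2 of 227 loci (0.881%), both outside the 37. Before adjustment, 43 of the 227 (18.9%) had p under 0.05 in edgeR's test of the difference, 11 of them among the 37. Mir205 had a log2 fold change of -0.03 at 1 month and 3.98 at 3 months (edgeR adjusted p of the difference = 0.0326). Mir741 had 1.19 at 1 month and -1.70 at 3 months (adjusted p of the difference = 0.0436).

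**Figure D3:**
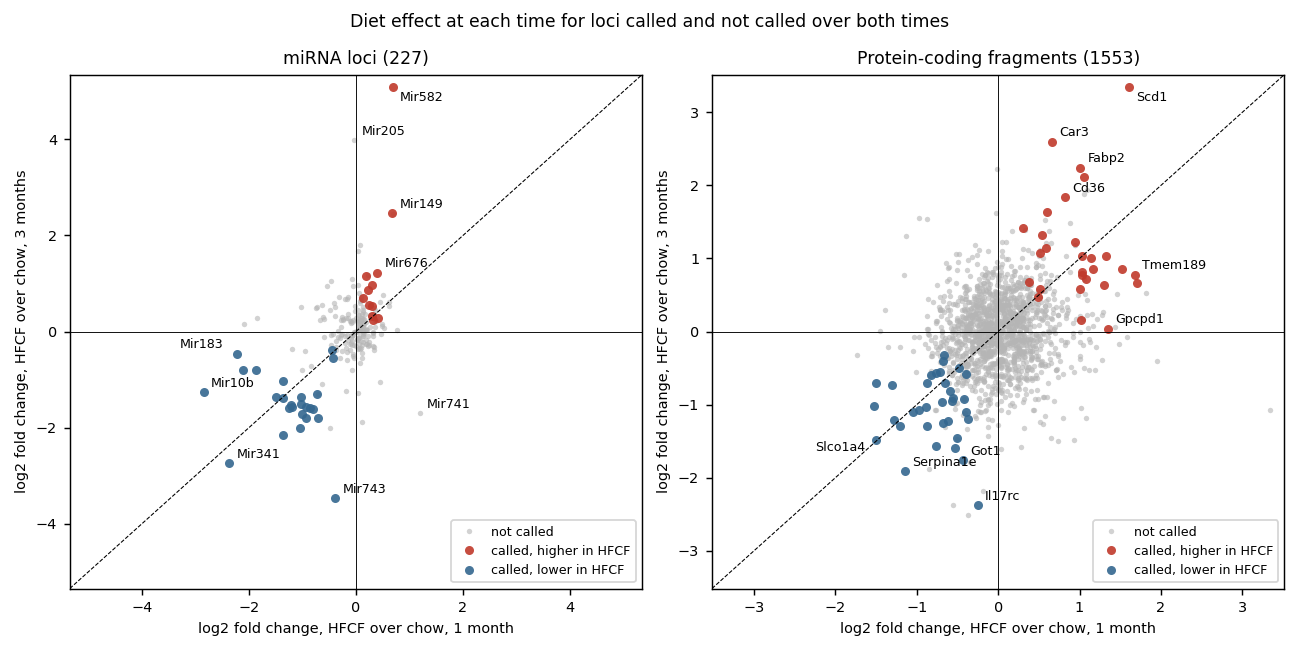
Log2 fold change of HFCF over chow at 1 month (horizontal axis) and at 3 months (vertical axis) for each miRNA locus and each protein-coding gene tested, with loci called over both times in red (higher in HFCF) or blue (lower in HFCF) and the others in grey. All 37 called miRNA loci and all 62 called genes have the same sign at both times, and the dashed line marks equal change.

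Class shares were taken after genes that share reads with small RNA genes were left out, so they are not shares of the whole table. Fragments of protein-coding transcripts made up 1.63 ± 0.238% of the remaining counts in HFCF livers and 1.92 ± 0.536% in chow livers (SD, n = 6 each). An exact permutation test within times, two-sided, gave p = 0.260 (smallest p possible 0.005). miRNA loci took 81.8 ± 3.86% in HFCF livers and 79.7 ± 3.79% in chow livers (exact p = 0.365), and none of 5 class shares passed (adjusted p of at least 0.600). A fragment count is not a measure of the whole transcript, since it also depends on how the RNA was broken and captured. Of 1553 genes tested, 62 were called over both times (3.99%), 28 higher on HFCF (1.80%) and 34 lower (2.19%), and 27 changed more than 2-fold. All 6 HFCF libraries lay on 1 side of all 6 chow libraries for 19 genes (1.22%), 14 higher (0.901%) and 5 lower (0.322%); 9 of the higher and all 5 of the lower ones were called. Without chow replicate 2 at 1 month 53 genes were called, 48 of them among the 62.

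Fragments of several genes of fatty acid oxidation and uptake and of the desaturase Scd1 rose, while those of several genes of methionine and amino acid metabolism fell. Of 22 tested genes of the list of fatty acid oxidation and PPARα targets, 6 were higher, 0 lower and 16 not called, against 3.99% called over all genes. The median of the list was 0.21 against -0.00 over all genes. Ppara itself, the receptor, was 589, 734 and 632 CPM at 1 month and 930, 622 and 764 CPM at 3 months on HFCF. On chow it was 361, 316 and 162 CPM at 1 month and 445, 468 and 385 CPM at 3 months. The diets did not overlap (1.01 ± 0.20, edgeR adjusted p = 5.71e-04). Ehhadh, the bifunctional enzyme of peroxisomal oxidation, was 1373 to 4384 CPM with a median of 2546 CPM on HFCF, against 772 to 2178 CPM with a median of 1329 CPM on chow, and was apart within each time (0.92 ± 0.16, adjusted p = 2.03e-04). Acaa1b, a peroxisomal thiolase with a close paralogue and an overlap with Dlec1, was 774 to 1073 CPM on HFCF and 281 to 669 CPM on chow (1.08 ± 0.20, adjusted p = 2.35e-04). Vnn1, which makes pantothenate, was 129 to 336 CPM on HFCF and 16.6 to 126 CPM on chow, with no overlap (adjusted p = 0.00523). The mitochondrial members Cpt1a and Acadm were not called, with values of 0.21 and -0.13, and neither were the cytochromes Cyp4a10 and Cyp4a14, with -0.26 and -0.33.

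Fabp1, the fatty acid binding protein of the liver, was 1772 to 2784 CPM with a median of 1932 CPM on HFCF, against 648 to 1430 CPM with a median of 1203 CPM on chow. No library of either diet crossed over (0.93 ± 0.17, edgeR adjusted p = 2.35e-04). Promoters were at hand for 18 of the 28 genes called higher and 23 of the 34 called lower, and the upstream sequence of Fabp1 is shown because it was the 1 among these with a match to the letters AGGNCANAGGNCA, the direct repeat to which PPARα is known to bind, searched on both strands. The 250 bases before its RefSeq start (GRCm38.p6, chr6:71199629-71199878, plus strand) hold the match in capitals, in reverse complement, at -67 to -55 from the start.
Fabp1 upstream: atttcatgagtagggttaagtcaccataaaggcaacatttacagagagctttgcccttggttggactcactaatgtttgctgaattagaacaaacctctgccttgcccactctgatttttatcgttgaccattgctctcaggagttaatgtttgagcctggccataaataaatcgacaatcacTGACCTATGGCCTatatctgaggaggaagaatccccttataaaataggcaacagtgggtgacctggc
The letters occurred in promoters of 122 of 27025 genes (0.451%), of 4 of 1128 tested genes (0.355%), of 1 of 18 genes called higher and of 0 of 23 called lower, in windows of 250 bases before to 50 bases after the start. A match is a description of the letters and not a measured site.

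Scd1, which makes monounsaturated fatty acids, had the largest change among the named genes. Its levels were 5537, 5625 and 12434 CPM at 1 month and 15078, 17034 and 27949 CPM at 3 months on HFCF. On chow they were 2901, 2796 and 2052 CPM at 1 month and 2003, 1567 and 2295 CPM at 3 months. The diets did not overlap (2.45 ± 0.40, edgeR adjusted p = 0.00775). The call was lost in 1 of 24 alternatives, with a replicate block of 6 pairs within time (adjusted p = 0.0657). The change was 1.61 at 1 month and 3.35 at 3 months, a difference with an unadjusted p of 6.82e-04 and an adjusted p of 0.212 by edgeR. Of 11 tested genes of fatty acid synthesis and desaturation, Scd1 was the 1 higher and Lpin1 the 1 lower, against 3.99% called over all genes. Fasn and Acly were not called (-0.28 and -0.52). Lpin1, a phosphatidate phosphatase that also acts as a coactivator, was 39.6 to 515 CPM on HFCF and 187 to 1132 CPM on chow, apart within each time (-1.23 ± 0.22, adjusted p = 2.03e-04). The fatty acid transporter Cd36 was 147 to 837 CPM on HFCF and 93.6 to 257 CPM on chow (1.37 ± 0.26, adjusted p = 3.04e-04). Cd36 and Gpcpd1 were the 2 called of 3 tested genes on the lipid droplet and uptake list, against 3.99% called over all genes. Gpcpd1, a glycerophosphocholine phosphodiesterase, is not itself a droplet or uptake protein, and the list's median of 0.80 was its value. The third tested gene, the droplet coat protein Plin2, had a value of 0.56 (edgeR adjusted p = 0.0657). Over the alternatives the count of called members ran from 0 to 3. The summed level of these 3 was 1979 to 3292 CPM in HFCF livers and 1231 to 1812 CPM in chow livers. Gpcpd1 was 0.80 over both times, 1.35 at 1 month and 0.04 at 3 months, and its call was lost without chow replicate 2 at 1 month (adjusted p = 0.102).

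**Figure D4:**
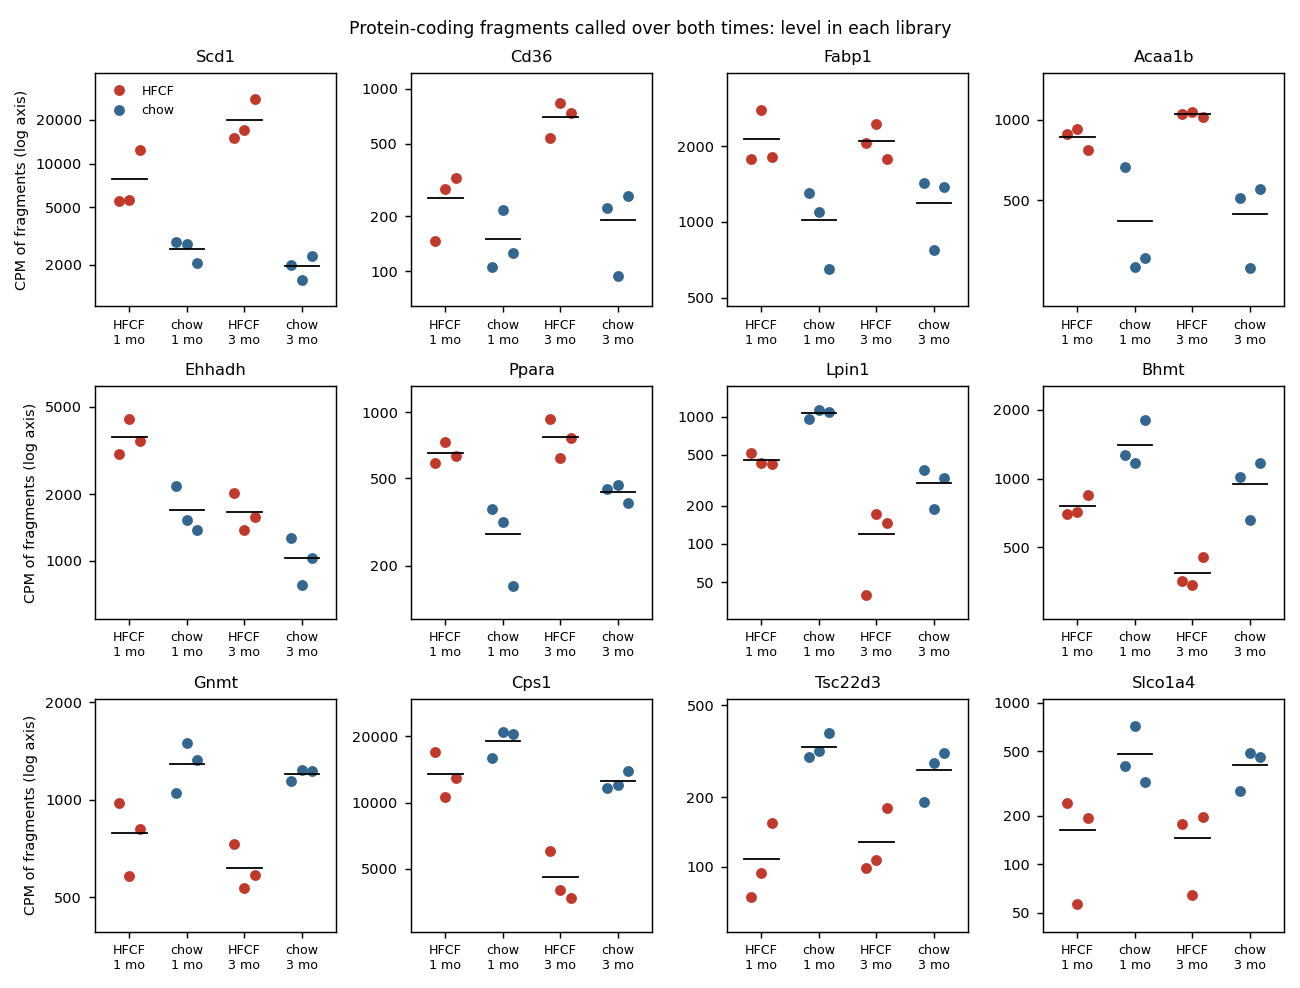
Level of fragments of 12 called protein-coding genes in each library, as CPM of protein-coding fragment counts on a log axis, with 1 point per library, a line at the mean of 3 libraries, HFCF in red and chow in blue at each time. All 6 HFCF points lie above all 6 chow points for Scd1, Fabp1, Acaa1b and Ppara, and below them for Gnmt, Tsc22d3 and Slco1a4.

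All 12 tested genes of methionine and one-carbon metabolism had a negative value, with a median of -0.56. Of these, 4 were called lower, against 3.99% called over all genes. Gnmt, which uses up S-adenosylmethionine, was 536 to 975 CPM with a median of 659 CPM on HFCF, against 1052 to 1498 CPM with a median of 1235 CPM on chow, with no overlap (-0.82 ± 0.17, edgeR adjusted p = 0.00107). Bhmt, which remakes methionine from homocysteine, was 343 to 851 CPM on HFCF and 655 to 1800 CPM on chow (-1.05 ± 0.18, adjusted p = 2.03e-04); it overlaps Gm15622. Mat1a, which makes S-adenosylmethionine, and Dmgdh, which breaks down dimethylglycine, had values of -0.67 (adjusted p = 0.00140) and -0.65 (adjusted p = 0.0486). The call of Dmgdh was lost in 19 of 24 alternatives.

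Of 23 genes of the urea cycle and amino acid breakdown, 7 were lower, 0 higher and 16 not called. Over all genes tested 3.99% were called. The median of the list was -0.44. Without the time term 1 of the 23 was called. Cps1, the entry enzyme of the urea cycle, was 3675 to 17054 CPM with a median of 8305 CPM on HFCF, against 11698 to 20870 CPM with a median of 14964 CPM on chow. Its diets overlapped at 1 month and were apart at 3 months (-0.96 ± 0.16, edgeR adjusted p = 2.35e-04). Of all 1553 genes tested, 268 lay apart at 3 months without lying apart the same way at 1 month. Of the other urea cycle enzymes, Asl (-0.69, adjusted p = 0.00573) and Arg1 (-0.72, adjusted p = 0.00148) were lower, while Ass1 (-0.71, adjusted p = 0.0817) and Otc (-0.39, adjusted p = 0.488) were not called. Tdo2 of tryptophan, Hal of histidine, Tat of tyrosine and the aspartate aminotransferase Got1 were lower by their values of -0.71, -0.96, -0.74 and -0.92. The call of Got1 was lost in 6 of 24 alternatives, that of Tat in 4, that of Hal in 1 and that of Tdo2 in 0. The summed hepatocyte transcripts, of which Cps1 and Tat are members, had a median of 109026 CPM in HFCF livers and 132746 CPM in chow livers, and their part in these values was not tested.

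The other called genes included several of the largest changes. Car3 (1.73, edgeR adjusted p = 0.0201), Fabp2 (1.53, adjusted p = 0.00660) and Tmem189 (1.34, adjusted p = 0.00237) were higher. Il17rc (-1.36, edgeR adjusted p = 0.0475) and Agxt2l1 (-1.26, adjusted p = 0.00110) were lower. The call of Car3 was lost in 7 of 24 alternatives and that of Il17rc in 13. Transporters were also among the called genes. The organic anion transporter Slco1a4 was 56.4 to 239 CPM on HFCF and 286 to 716 CPM on chow (-1.49 ± 0.26, edgeR adjusted p = 2.09e-04), whereas Slco1b2, a transporter of the same family, was 2489 to 3918 CPM on HFCF and 1681 to 2441 CPM on chow (0.55 ± 0.14, adjusted p = 0.00839). Neither overlapped between the diets. Tsc22d3, which encodes a leucine zipper protein, was 73.6 to 179 CPM on HFCF and 191 to 378 CPM on chow (-1.30 ± 0.27, adjusted p = 0.00107), and Fkbp5, a co-chaperone of steroid receptors, was 98.9 to 276 CPM on HFCF and 244 to 468 CPM on chow (-0.91 ± 0.25, adjusted p = 0.0178; not called in 5 of 24 alternatives). Alas1, the first enzyme of haem synthesis, was higher without overlap (0.81 ± 0.17, adjusted p = 0.00148). The chaperone Hspa5 was lower without overlap, at 423 to 927 CPM on HFCF and 967 to 1377 CPM on chow (-0.67 ± 0.17, adjusted p = 0.0110), and its call was lost without HFCF replicate 1 at 1 month.

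**Figure D5:**
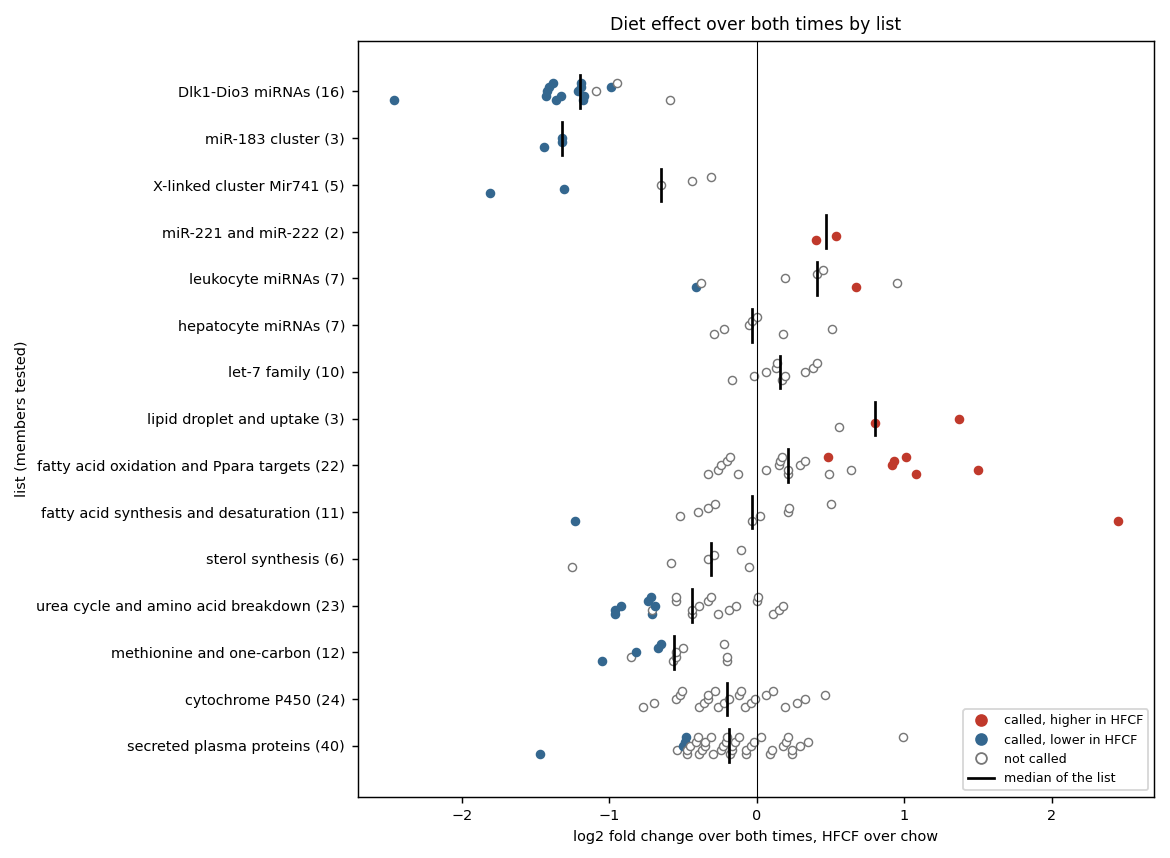
Log2 fold change over both times of the tested members of 15 gene lists, with called members filled and a bar at each list's median. The Dlk1-Dio3 miRNAs (median -1.20) and the miR-183 cluster (median -1.32) lie lowest, and the lipid droplet and uptake list (median 0.80) lies highest. That list has 3 tested members, and its median is the value of Gpcpd1.

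Lists of other liver functions are set against the 3.99% of all genes called. None of 24 cytochrome P450 genes was called (median -0.21), and of 40 secreted plasma proteins 4 were lower, among them Serpina1e (-1.47, edgeR adjusted p = 7.10e-04), whose near-identical paralogues make its counts uncertain. The acute phase list had 3 lower of 13, a count that ran from 0 to 4 when 1 library was left out, and the bile acid list 1 higher of 13, Slco1b2. No macrophage gene had enough counts to be tested, and the 4 in the table used summed to 155 to 515 CPM in HFCF livers and 184 to 350 CPM in chow livers. For the protein-coding genes, 27 of the 62 called lay apart the same way at both times, against 45 of 1553 tested (2.90%). A call from the same libraries favours this property. At single times 27 genes were called at 1 month (1.74%) and 36 at 3 months (2.32%). Of the 62, 6 were called at both single times, 15 at 1 month only, 19 at 3 months only and 22 at neither. Across genes the changes at the 2 times had a Pearson r of 0.206 and a Spearman rho of 0.168. The difference of the diet effect between the times was called for 0 of 1553 genes by edgeR, where 144 (9.27%) had p under 0.05 before adjustment, for 0 by DESeq2 and for 3 by limma-voom.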

How the data were processed

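Small RNA libraries of 12 mouse livers were used as counts per gene, deposited by the authors next to FPKM values, which were not used for tests. The reads were placed on mm10, per the submitters' processing notes; an aligner, a counter and a strand setting were not given in the sources used here. Each gene of the deposited table, 3717 in all, had at least 10 counts in 1 library, and 3617 matched GENCODE M21. It gave 259 miRNA loci and 2811 protein-coding genes, after 154 that share reads with small RNA genes were left out. One duplicated miRNA locus was counted once.

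Each class was fitted apart with edgeR 4.0.16 in R 4.3.3: quasi-likelihood, robust, TMM, filterByExpr by the 4 groups, with diet and time as additive terms and Benjamini-Hochberg adjustment over the class. A value is a log2 fold change of HFCF over chow with its SE, derived from F. Differences between times came from a fit with 1 mean per group. DESeq2 1.42.0, limma-voom (limma 3.58.1), other scalings, filters and models, replicate blocks and leaving out each library were alternatives. Class shares were tested with SciPy 1.17.1, over 400 arrangements within times. Named loci were taken from the called ones with the largest change in each direction (up to 12, mean of at least 10 CPM, or 50 counts for genes), up to 8 called at neither single time, up to 5 with the smallest p for a difference between times, and members of the lists. Not all of these are described, and some called genes outside these rules, such as Fkbp5 and Alas1, are given as well. Members and lists were chosen with earlier results of these data known. On data simulated for the additive diet effect, 46.7% of 1.5-fold, 60% of 2-fold and 100% of 4-fold changes were recovered among 227 miRNA loci, with 3 false calls, and 26.9%, 70.1% and 92.4% among 1553 genes, with 1 false call. The simulated counts held no time effect, no difference of the diet effect between times and no library made to stand apart. These rates need not hold for the real data. Whether replicate numbers pair the libraries is not settled, and the fit used here took them as unpaired. Tables used pandas 2.3.3 and figures matplotlib 3.10.9 with Python 3.11.15.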

Additional observations from a re-analysis of the deposited data

Results flagged for a closer look

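A library stood far from the other 5 of its diet in 4 cases among 140 groups of libraries examined, where chance alone flags about 1 in 20 groups. In chow replicate 2 at 1 month, Mir107 was lowest at 548 CPM (the other chow libraries 731 to 854 CPM), Mir203 was lowest at 1882 CPM (2588 to 2904 CPM) and Mir10b was highest at 1389 CPM (86.7 to 169 CPM). In HFCF replicate 1 at 1 month, Hspa5 fragments were lowest at 423 CPM (the other HFCF libraries 732 to 927 CPM), and the call of Hspa5 was lost without that library.

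The diet effect differed between the times for 2 miRNA loci by edgeR's test of the difference. Both kept this call with DESeq2. Neither kept it with limma-voom, nor when any 1 of the chow libraries at 3 months was left out. Mir205 was more positive at 3 months than at 1 month by 4.01 on the log2 scale (adjusted p = 0.0326), with 36.2, 139 and 90.8 CPM in HFCF livers at 3 months and 8.05, 4.84 and 4.42 CPM in chow livers. Mir741 had a difference of -2.89 (adjusted p = 0.0436), with 2.83 to 5.82 CPM in HFCF livers and 10.1 to 19.0 CPM in chow livers at 3 months.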

How the results depend on the processing

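None of the 37 loci and 62 genes called changed direction under the alternatives run, and 16 loci and 17 genes were called in every one that could be computed for them; of the values that were not called, Mir21, Mir192 and Mir29a reached 0.01, 0.24 and 0.14 in at least 1 of them, against -0.29, -0.03 and -0.14. The count of called miRNA loci was 71 (51 higher, 71.8%) with all genes in 1 fit, 32 of the 37 among them, and 22 without the time term, of which 21 were among the 37; leaving out 1 library gave 28 to 45. For protein-coding genes it was 39 with all genes in 1 fit, 21 without the time term and 47 to 77 when 1 library was left out. DESeq2 called 48 loci and 43 genes, limma-voom 38 and 54. Deviations of same-numbered libraries correlated at -0.22 to 0.39 for miRNA loci (5 of 18 pairs over 0.1) and -0.04 to 0.10 for genes. Between chow and HFCF within a time, the miRNA values for replicates 1, 2 and 3 were 0.20, -0.04 and 0.39 at 1 month. At 3 months they were 0.13, 0.17 and -0.07. Such correlations cannot exclude a pairing by replicate number. With a replicate block of 3 numbers 33 loci and 60 genes were called, and with a replicate block of 6 pairs 32 and 59, Scd1 (adjusted p = 0.0657) and Mir222 (adjusted p = 0.0516) not among them. The difference between times was called for 26 miRNA loci with library totals (25 more positive at 3 months, median 0.36), 20 with DESeq2, 0 with limma-voom and 0 to 28 when 1 library was left out, 28 without HFCF replicate 1 at 3 months. For genes it was called for 3 with limma-voom, 4 with the replicate block and 0 to 8 when 1 library was left out, 8 without HFCF replicate 3 at 1 month. The miRNA share of counts was higher on HFCF by 2.85 percentage points (exact permutation p = 0.0100) when genes that share reads were kept. The cause of these shifts was not tested. Of the other recomputed values of single loci and genes, 1667 kept their call, 199 lost it and 53 gained it. Depth limits the fragments most, at 31205 to 101283 counts per library.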
